A study of Mus musculus with 6 samples.

Results

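The 9 genes described here encode AP-1 transcription factors: the Fos family (Fos, Fosb, Fosl1, Fosl2), the Jun family (Jun, Junb, Jund), and the related factors Atf3 and Batf. They were taken as every probe that is not a control and whose gene name in the files is 1 of these symbols, which gave 10 probes of 9 genes among 55681 probes of 36095 targets. The samples were back skin of male C57BL/6 mice aged 6 to 8 weeks, all shaved on the back. In the UVB group, 3 mice were exposed from 2 days after shaving to 180 mJ/cm2 of ultraviolet B light per session, over 2 weeks with 3 sessions in each, and in the control group 3 mice were kept dark. RNA from each mouse was hybridised to 1 Agilent array in 1 colour, so that the precision of every value is limited by 3 arrays per group. How long after the final exposure the skin was taken is not stated in the labels.

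AP-1 factors bind DNA as dimers through a basic region and a leucine zipper. Jun proteins pair with each other or with Fos proteins, whereas Fos proteins need a partner. Several of the genes, Fos above all, belong to the immediate early genes, whose transcription rises within minutes of growth factors, wounding or ultraviolet light and then falls again, so that their RNA level depends on when tissue is taken. In skin, AP-1 is known for control of keratinocyte growth and differentiation and of matrix metalloproteinase genes after ultraviolet light.

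Promoters of AP-1 genes carry sites through which signals, and in the case of Jun AP-1 itself, act on them. The 250 bases before the annotated start (RefSeq, GRCm38.p6, 5′ to 3′) are shown for Fos, Fosb, Atf3 and Jun, which differ in the sites they hold. None of these genes passed the test between UVB and control skin, and a link between the sites and UVB was not tested. Capitals mark matches on either strand to TGACG, the core of the cyclic AMP response element, to TGACATCA, the form in which the Jun promoter holds its AP-1 site, or to TATAAA.
Fos (chr12:85473640-85473889, plus strand): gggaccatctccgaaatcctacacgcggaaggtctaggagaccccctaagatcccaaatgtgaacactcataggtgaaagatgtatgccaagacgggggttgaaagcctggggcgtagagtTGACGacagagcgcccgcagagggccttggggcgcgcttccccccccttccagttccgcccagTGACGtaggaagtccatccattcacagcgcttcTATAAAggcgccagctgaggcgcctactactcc
Fosb (chr7:19310046-19310295, minus strand): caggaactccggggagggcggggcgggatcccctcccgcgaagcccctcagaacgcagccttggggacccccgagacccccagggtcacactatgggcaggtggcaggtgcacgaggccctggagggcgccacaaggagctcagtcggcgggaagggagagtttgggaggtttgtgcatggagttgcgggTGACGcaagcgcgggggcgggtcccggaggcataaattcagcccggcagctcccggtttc
Atf3 (chr1:191183334-191183583, minus strand): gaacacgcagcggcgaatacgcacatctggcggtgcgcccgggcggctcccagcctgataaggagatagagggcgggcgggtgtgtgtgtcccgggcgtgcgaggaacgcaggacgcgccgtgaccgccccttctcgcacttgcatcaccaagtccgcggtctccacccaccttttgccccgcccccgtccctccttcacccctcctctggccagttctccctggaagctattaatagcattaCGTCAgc
Jun (chr4:95052223-95052472, minus strand): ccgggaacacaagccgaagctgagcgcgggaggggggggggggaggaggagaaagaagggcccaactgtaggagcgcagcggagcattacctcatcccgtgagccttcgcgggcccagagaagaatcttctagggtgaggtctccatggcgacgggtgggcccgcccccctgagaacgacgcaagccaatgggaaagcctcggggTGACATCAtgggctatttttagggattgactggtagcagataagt
TGACG was found in 5 of the 8 member windows with an entry (Fos, Fosb, Junb, Atf3 and Batf) and in 17.8% of 32851 windows of the same length. In Fos it lay at 129 and 66 bases before the start, in Fosb at 60 and, on the opposite strand, in Atf3 at 7. TGACATCA was found only in Jun among the members, 45 bases before the start, and in 2.93% of all windows. TATAAA was found only in Fos among the members, and in 12.4% of all windows. The full element TGACGTCA, which contains TGACG, the AP-1 element TGANTCA and the CArG box of serum response factor were found in none of the 8 windows, and in 1.55%, 6.75% and 1.47% of all windows. Such matches describe these letters and are not measured binding sites. Sequence further than 250 bases before the start was not searched, so an empty window does not show that a gene lacks a site.

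All 9 genes were well above background on all 6 arrays. None of them passed the test between UVB and control skin (limma over 24333 targets, Benjamini-Hochberg adjusted p under 0.05), whereas 12.6% of all targets were called, 5.54% higher and 7.02% lower. At an unadjusted limma p under 0.05 stood 3 members, Fosb and Fosl1 lower and Fosl2 higher, against 31.5% of all targets. The mean was lower after UVB for 5 members (Fos, Fosb, Fosl1, Junb, Atf3) and higher for 4 (Fosl2, Jun, Jund, Batf), with a median log2 fold change of -0.63 over the 9 and -0.04 over all targets. The groups did not overlap for 2 members, Fosl1 and Fosl2, against 38.5% of all targets. Levels below are log2 signals relative to the 75th percentile of the array and are not compared between genes, since each probe has its own response. Errors beside levels are SDs over 3 mice, and those of a log2 fold change are standard errors from limma.

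Fos, the founding member of the family and a partner of Jun proteins, stood at log2 levels of 3.51, 2.52 and 3.81 in control mice 1 to 3 and at 2.92, 2.50 and 1.69 in UVB mice 1 to 3. Control mouse 2 lay within the range of the UVB mice, so that the groups overlapped. The means were 3.28 ± 0.67 and 2.37 ± 0.63, a log2 fold change of -0.91 ± 0.43 (95% interval -1.96 to 0.14, limma adjusted p = 0.207). With UVB replicate 3 left out it was -0.57 ± 0.40. The Fos probe was printed in 10 spots on each array, whose SD within an array was 0.03 to 0.08 on the log2 scale, far below the SD between mice of a group. The probe lies at chr12:86817900-86817959 of mm9.

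Fosb, a Fos protein also known for a truncated splice form that lacks part of the activation region, had the widest spread among controls, with log2 levels of 2.33, 0.14 and 3.25 in control mice 1 to 3. The UVB mice stood close together at -0.02, 0.41 and -0.34. Control mouse 2 lay among the UVB mice and the other 2 controls lay above them. The means were 1.91 ± 1.60 and 0.02 ± 0.38, a log2 fold change of -1.89 ± 0.76 (95% interval -3.72 to -0.06, limma adjusted p = 0.148). Without control replicate 2, Fosb passed, with a log2 fold change of -2.77 ± 0.36 (limma adjusted p = 0.0252), and without control replicate 3 it was -1.22 ± 0.66 (limma adjusted p = 0.311). The call thus turned on which control mice were kept. The Fosb probe lies at chr7:19888168-19888227 of mm9.

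Fosl1 encodes FRA1, a Fos protein without the strong activation region of Fos and a known product of wounded and transformed epithelium. Its log2 levels were -0.46, -0.68 and 1.46 in control mice 1 to 3 and -2.20, -1.52 and -1.86 in UVB mice 1 to 3. All UVB mice lay below all controls, and control mouse 3 stood well above the other 2 controls. The means were 0.11 ± 1.18 and -1.86 ± 0.34, with the control mean 3.91 times the UVB mean, a log2 fold change of -1.97 ± 0.57 (95% interval -3.35 to -0.59, limma adjusted p = 0.0721). Without control replicate 3, the mouse with the highest level, the difference was smaller and passed, at -1.29 ± 0.24 (limma adjusted p = 0.0399). It also passed with normexp background correction, at -1.48 ± 0.44 (limma adjusted p = 0.0470), and with a variance trend and robust fit (limma adjusted p = 0.0497). Under every other alternative Fosl1 did not pass, with the weakest result without UVB replicate 1, at -1.80 ± 0.68 (limma adjusted p = 0.180). The Fosl1 probe lies at chr19:5455496-5455555 of mm9.

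Fosl2 encodes FRA2, a Fos protein found in differentiating epidermal layers, and was the member whose UVB levels all lay above the controls. Its brighter probe gave log2 levels of 3.62, 3.31 and 3.87 in control mice 1 to 3 and of 4.07, 4.20 and 4.38 in UVB mice 1 to 3. The means were 3.60 ± 0.28 and 4.22 ± 0.15, a 1.53-fold higher mean after UVB and a log2 fold change of 0.62 ± 0.18 (95% interval 0.18 to 1.05, limma adjusted p = 0.0730). A dimmer probe, 4988 bases nearer the 5′ end of the gene in mm9, gave -1.78, -2.38 and -2.14 in controls and -1.27, -1.22 and -0.87 after UVB, again without overlap. Tested among all 33724 probes, of which 11.2% were called, the dimmer probe rose by 0.98 ± 0.20 (limma adjusted p = 0.0314) and the brighter one did not pass (0.62 ± 0.18, limma adjusted p = 0.0787). The mean of both probes passed over all targets, at 0.80 ± 0.17 (limma adjusted p = 0.0338). The brighter probe passed with normexp (0.54 ± 0.16, limma adjusted p = 0.0415) and with a variance trend and robust fit (limma adjusted p = 0.0312), but not with any 1 array left out. The probes lie at chr5:32460076-32460135 and chr5:32455088-32455147 of mm9.

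**Figure D1:**
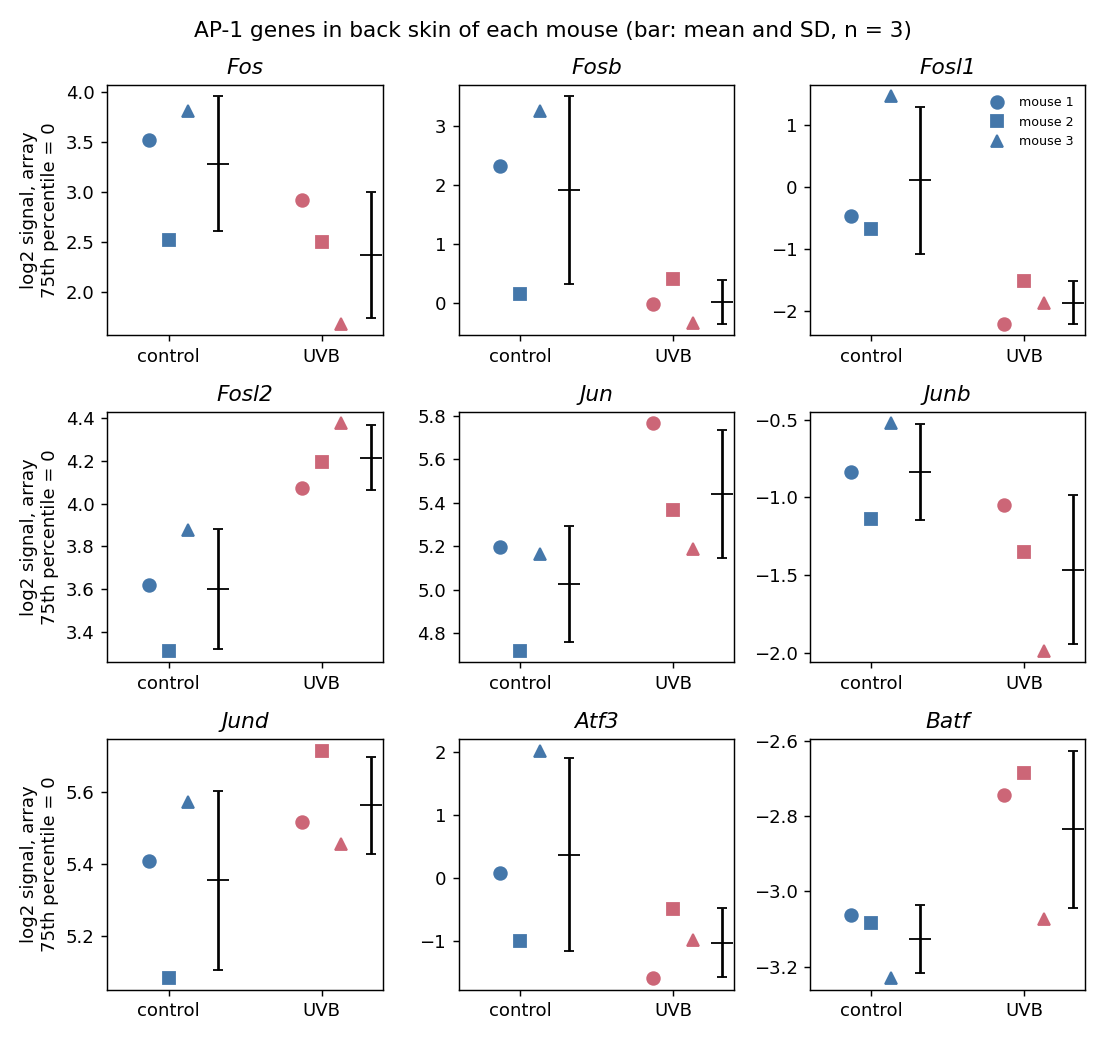
Log2 signal of each AP-1 gene (vertical axis, 0 is the 75th percentile of the array) in 3 control and 3 UVB mice, each point 1 mouse and each bar the mean and SD of a group. Mouse numbers are not taken to link the groups. All UVB points lie below the controls for Fosl1 and above them for Fosl2, and the controls spread most widely for Fosb, Atf3 and Fosl1.

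Jun, the partner of Fos proteins and a factor that activates its own promoter, stood at log2 levels of 5.19, 4.72 and 5.16 in control mice 1 to 3 and at 5.77, 5.37 and 5.19 in UVB mice 1 to 3. UVB mouse 3 lay level with control mice 1 and 3, and the other 2 UVB mice lay above all controls. The log2 fold change was 0.42 ± 0.21 (95% interval -0.09 to 0.92, limma adjusted p = 0.230). It was 0.25 ± 0.20 with UVB replicate 1 left out and 0.26 ± 0.21 with control replicate 2 left out. Junb, which often counters Jun in cell cycle control and restrains inflammation in epidermis, stood at -0.84, -1.14 and -0.52 in control mice and at -1.05, -1.35 and -1.99 in UVB mice 1 to 3. UVB mouse 1 lay within the controls and UVB mouse 3 was the lowest. The log2 fold change was -0.63 ± 0.28 (95% interval -1.30 to 0.05, limma adjusted p = 0.183), and it was -0.37 ± 0.22 without UVB replicate 3 and -0.38 ± 0.17 with normexp. Jund, the most evenly expressed of the Jun genes in most tissues, stood at 5.41, 5.08 and 5.57 in control mice and at 5.52, 5.72 and 5.45 in UVB mice. UVB mice 1 and 3 lay within the controls and UVB mouse 2 above them. Its log2 fold change was 0.21 ± 0.17 (95% interval -0.19 to 0.61, limma adjusted p = 0.436). It was 0.07 ± 0.16 with control replicate 2 left out, 0.13 ± 0.19 with UVB replicate 2 left out, 0.32 ± 0.17 with control replicate 3 left out and 0.11 ± 0.20 with array median scaling. The intervals for Jun and Jund thus reach from a small fall to a rise, and a missed threshold does not show that these genes were equal in both groups. The Jun, Junb and Jund probes lie at chr4:94716928-94716987, chr8:87501881-87501940 and chr8:73224436-73224495 of mm9.

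Atf3, a stress-induced factor that represses many inflammatory genes and pairs with Jun proteins, stood at log2 levels of 0.09, -0.99 and 2.02 in control mice 1 to 3 and at -1.59, -0.50 and -0.99 in UVB mice 1 to 3. Control mouse 3 was far above the rest, and control mouse 2 lay among the UVB mice. The log2 fold change was -1.40 ± 0.75 (95% interval -3.21 to 0.42, limma adjusted p = 0.256), and it ran from -2.08 ± 0.63 with control replicate 2 left out to -0.57 ± 0.45 with control replicate 3 left out, both short of the threshold. Batf, a factor of lymphocytes and dendritic cells that lacks an activation region and pairs with Jun proteins, was read at signals of 35.8 to 61.1 before scaling. Its log2 levels were -3.06, -3.08 and -3.23 in control mice and -2.74, -2.69 and -3.07 in UVB mice 1 to 3, so that UVB mouse 3 lay within the controls. The log2 fold change was 0.29 ± 0.15 (95% interval -0.06 to 0.64, limma adjusted p = 0.229), and it was 0.17 ± 0.15 with quantile normalization or the deposited table and 0.19 ± 0.18 with array median scaling. With normexp the Batf value was larger, at 0.34 ± 0.12, and did not pass. Its spots, 10 on each array but 7 used on control mouse 3, had an SD of 0.07 to 0.21 within an array on the log2 scale, beside an SD of 0.09 between control mice. The Atf3 and Batf probes lie at chr1:192994547-192994606 and chr12:87049872-87049929 of mm9.

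**Figure D2:**
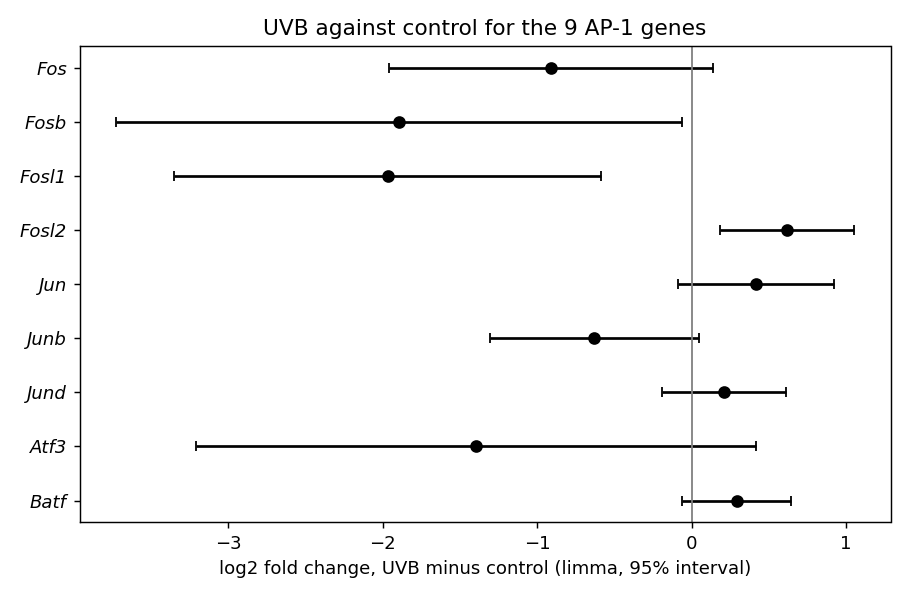
Log2 fold change of UVB minus control (horizontal axis) for the 9 AP-1 genes, with the limma 95% interval over 3 mice per group. The intervals of Fosb, Fosl1 and Fosl2 leave out 0 before adjustment over all targets, and none of the 9 passed after it.

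Most members had the same lowest and the same highest control mouse. Control mouse 2 was the lowest control for 8 of the 9 members, all but Batf, and for 31.2% of all targets. Control mouse 3 was the highest control for 7 of the 9, all but Jun and Batf, and for 31.0% of all targets. UVB mouse 3 was the lowest UVB mouse for 6 of the 9 members (Fos, Fosb, Jun, Junb, Jund, Batf), and for 40.2% of all targets. Members read on 1 array share their RNA and scaling, so these counts describe 3 mice and not 9 separate observations. The 5 named genes whose profile over the 6 arrays was most like that of Fos were 9130015A21Rik (Pearson r = 0.98), Rnf123, Hbegf (0.97 for both), Zfp410 and Insl5 (0.96 for both). Hbegf, an EGF receptor ligand, had log2 levels of 1.13, 0.78 and 1.39 in control mice and 0.76, 0.56 and 0.33 in UVB mice 1 to 3. With 6 arrays and 15923 named targets to rank, such likeness is a description of these arrays.

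**Figure D3:**
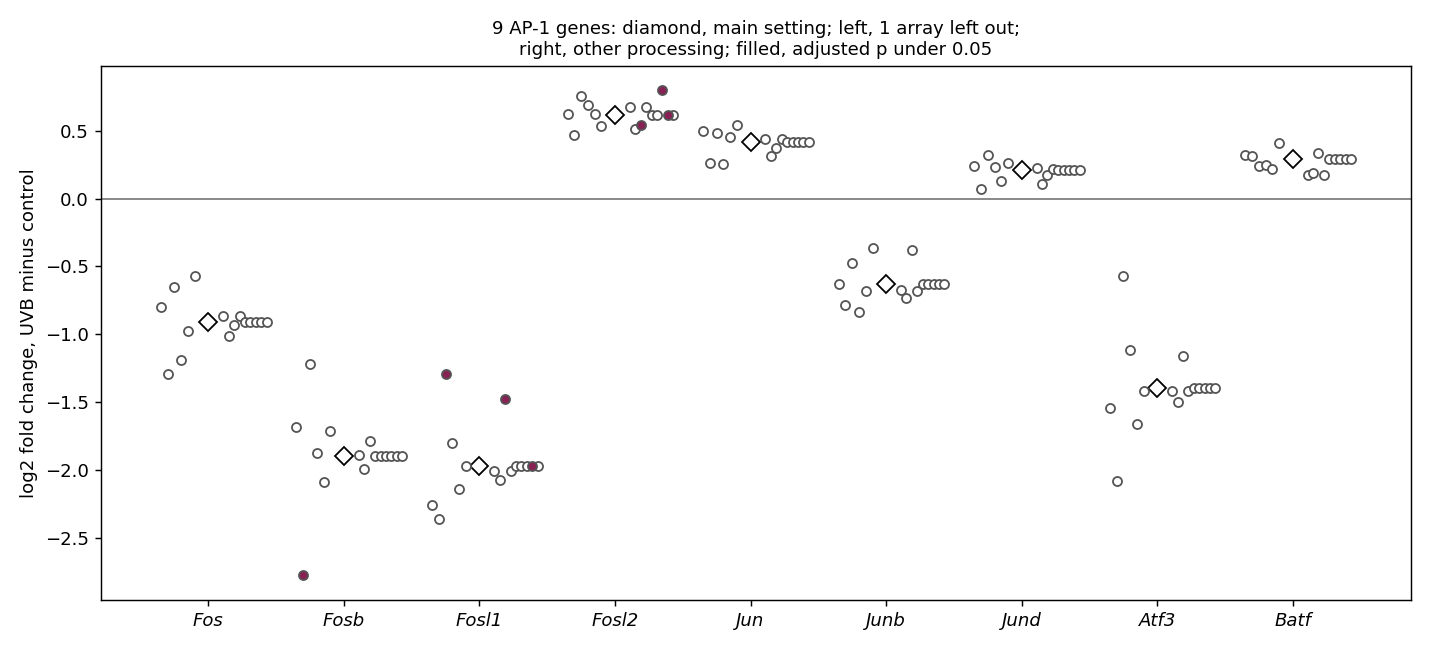
Log2 fold change (vertical axis) of each AP-1 gene in the main setting (diamond), with 1 array left out (points on the left) and under other processing (points on the right), filled where the limma adjusted p was under 0.05. Filled points appear for Fosb (1 of 15), Fosl1 (3 of 15) and Fosl2 (3 of 15), and each gene keeps its sign in all 15.

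Immediate early genes outside the AP-1 family are induced by the same signals as Fos. Of 22 tested of 23, 6 fell, 1 rose and 15 did not pass, beside 7.02% and 5.54% of all targets, and the median log2 fold change was -0.41. Ccn1, a matrix-associated signalling protein, fell by 1.53 ± 0.31 (limma adjusted p = 0.0284). Egr4, a zinc finger factor that no UVB array read well above background, was at least 2.13-fold lower, a bound not reached with normexp (log2 fold change -0.30). It met the filter on dim probes only through its 3 control arrays, so its call is no separate support for the direction. Egr1, a zinc finger factor induced with Fos, fell by 0.88 ± 0.21 (limma adjusted p = 0.0422). Gadd45b, a growth arrest gene, rose by 0.55 ± 0.12 (limma adjusted p = 0.0360). Ccn2 (-1.22 ± 0.64, and -0.72 without UVB replicate 1 to -1.97 without UVB replicate 3) and Zfp36, which destabilises cytokine mRNAs (-0.85 ± 0.22, and -0.49 with normexp), did not pass. With 1 array left out, Ccn2 passed only without UVB replicate 3 (limma adjusted p = 0.0177). With 1 array left out, 0 to 4 of these genes fell and 0 rose, the fewest without UVB replicate 1 or 2, where none fell. Ccn1 and Egr4 passed in 2 such fits of 6, those leaving out control replicate 2 or 3. In the others Ccn1 had a limma adjusted p of up to 0.0916. Egr1 passed only without control replicate 2.

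Signals that reach AP-1 run through MAP kinases, which phosphorylate Jun and the factors that switch on Fos, and through the phosphatases that oppose them. Of 31 kinases and linked factors tested, 1 rose, 2 fell and 28 did not pass, with a median log2 fold change of -0.00; beside 5.54% of all targets higher and 7.02% lower, this is no result about the list. Mapk13, a p38 kinase of keratinocytes, rose by 0.99 ± 0.20 (limma adjusted p = 0.0289). Rps6ka5, the chromatin kinase MSK1, fell by 0.71 ± 0.14 (limma adjusted p = 0.0278), but by 0.17 with normexp. Srf, the serum response factor that binds the Fos promoter, fell by 0.67 ± 0.16 (limma adjusted p = 0.0410). The Jun kinases Mapk8 (0.28 ± 0.15) and Mapk9 (-0.38 ± 0.15), the p38 kinase Mapk14 (0.20 ± 0.14), Mapk10 (1.77 ± 0.72, but 0.56 with normexp, and well above background on 1 control array and 2 UVB arrays) and Elk3 (0.95 ± 0.24) did not pass, and the 3 Mapk8 probes ranged from -0.14 to 0.28. With 1 array left out, Mapk13 passed only without control replicate 3, Rps6ka5 only without UVB replicate 2, and Srf in none (limma adjusted p of 0.0761 to 0.0978). Elk3 passed only without control replicate 3 (limma adjusted p = 0.0459) and Mapk10 only without control replicate 1 (limma adjusted p = 0.0259). Of 11 phosphatases, 3 fell, 1 rose and 7 did not pass, with a median log2 fold change of -0.49 (with 1 array left out 1 to 3 fell, the fewest without control replicate 1 or 3 or UVB replicate 2). Where only probes well above background on all 6 arrays were tested, 1 phosphatase fell and 2 rose. Dusp4, a nuclear ERK phosphatase, fell by 2.14 ± 0.22 (limma adjusted p = 0.00450), and passed with each array left out, but by 0.63 with normexp. Only 1 UVB array read Dusp4 well above background, so the size of its fall rests on dim signals. Dusp6, an ERK phosphatase of the cytoplasm, fell by 1.31 ± 0.26 (limma adjusted p = 0.0263). Dusp2, a phosphatase of immune cells, rose by 2.37 ± 0.48 (limma adjusted p = 0.0297). Dusp1, the immediate early phosphatase (-0.49 ± 0.28, and -0.20 without control replicate 3), Dusp10, which no UVB array read well above background, and Dusp14 (0.77 ± 0.20) did not pass. Dusp6 and Dusp2 passed in 2 of 6 fits with 1 array left out, Dusp6 without control replicate 2 or UVB replicate 3 and Dusp2 without UVB replicate 2 or 3 (limma adjusted p up to 0.0860 and 0.0969 in the others). Dusp14 passed only without control replicate 3 (limma adjusted p = 0.0243).

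Of 32 tested of 38 AP-1 target genes known from skin and cultured cells, 9 fell, 2 rose and 21 did not pass, beside 7.02% of all targets lower and 5.54% higher. The median log2 fold change was -0.02 (6 fell without UVB replicate 1, and only 1 rose without control replicate 1 or 2 or UVB replicate 2). Where only probes well above background on all 6 arrays were tested, 7 target genes fell and 2 rose. The cytokine Tnf fell by 1.79 ± 0.15 (limma adjusted p = 0.00321), but by 0.84 with normexp. The cyclooxygenase Ptgs2 fell by 1.95 ± 0.28 (limma adjusted p = 0.0115) and did not pass without UVB replicate 1 (limma adjusted p = 0.0502), and it fell by 1.27 with normexp. Among the metalloproteinases, Mmp9 fell by 2.47 ± 0.34 (limma adjusted p = 0.00991), but by 0.64 with normexp. Only 1 UVB array read Mmp9 well above background, so the size of its fall rests on dim signals. Mmp3 fell by 1.88 ± 0.42 (limma adjusted p = 0.0375), and passed with 1 array left out only without control replicate 3 (limma adjusted p up to 0.119 otherwise). Mmp13 (0.54 ± 0.65, and -0.23 without control replicate 3), Mmp1b (-2.57 ± 0.96, but -0.55 with normexp, and well above background on 2 control arrays and 1 UVB array), the cyclin Ccnd1 (-0.21 ± 0.16) and S100a8 (1.35 ± 0.40) did not pass, and Il6 was well above background on none of the 6 arrays. With 1 array left out, Mmp1b passed only without control replicate 3 (limma adjusted p = 0.0238). The 2 that rose were the cornified envelope precursors Ivl (1.61 ± 0.15, limma adjusted p = 0.00390) and Lor (0.76 ± 0.15, limma adjusted p = 0.0273), of which Lor was 0.46 and did not pass with quantile normalization (limma adjusted p = 0.104) and passed with 1 array left out only without control replicate 3 or UVB replicate 1.

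**Figure D4:**
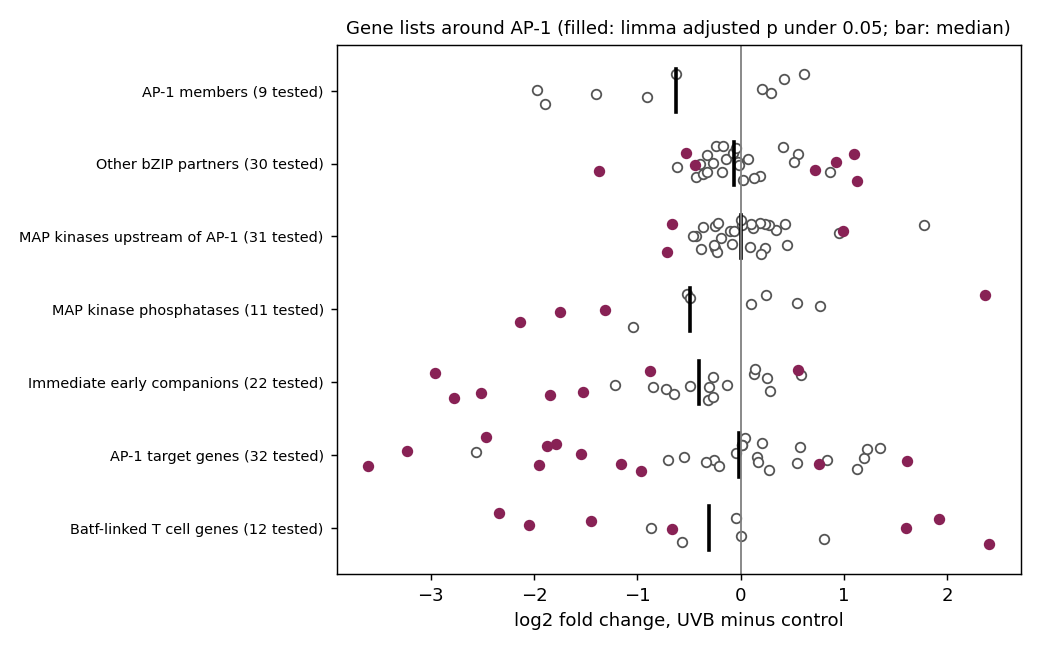
Log2 fold change of UVB minus control (horizontal axis) for each tested gene of 7 lists. Points are filled where the limma adjusted p was under 0.05, and a bar marks the median. Cd8a, Pdcd1, Egr4 and Dusp10 are drawn at their fitted value, which is no bound. No AP-1 gene is filled, while 6 immediate early companions and 9 target genes are filled on the lower side.

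Among 30 tested of 31 other leucine zipper factors, several of which pair with Fos, Jun or Batf, 4 rose, 3 fell and 23 did not pass, beside 5.54% of all targets higher and 7.02% lower, with a median log2 fold change of -0.06 (with 1 array left out 1 to 4 rose, the fewest without control replicate 2 or UVB replicate 1, and 0 to 2 fell, with none without any 1 control or UVB replicate 1). Nfe2l3, a cap-n-collar factor, rose by 1.13 ± 0.13 (limma adjusted p = 0.00680) and passed with each array left out. Nfil3, a repressor of clock genes, rose by 1.10 ± 0.19 (limma adjusted p = 0.0186), and not when control replicate 1 or 2 or UVB replicate 1 was left out (limma adjusted p up to 0.0725). Batf3, the Batf relative of dendritic cells, fell by 1.37 ± 0.32 (limma adjusted p = 0.0400), but by 0.26 with normexp, where it did not pass. Creb3, a membrane-bound factor of secretory cells, fell by 0.53 ± 0.12 (limma adjusted p = 0.0399). Batf2 (0.86 ± 0.38) and Bach2 (-0.61 ± 0.22, and -0.28 with normexp) did not pass. With 1 array left out, Bach2 passed only without UVB replicate 3 (limma adjusted p = 0.0379). Creb3 and Batf3 passed with 1 array left out only without UVB replicate 2 (limma adjusted p up to 0.147 and 0.131 in the others).

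Of 12 tested of 16 T cell genes linked to Batf, 4 fell, 3 rose and 5 did not pass, with a median log2 fold change of -0.31. Over all targets, 7.02% were called lower and 5.54% higher. Where only probes well above background on all 6 arrays were tested, 4 of these T cell genes fell and 1 rose. Irf4, which binds DNA with Batf and Jun proteins, fell by 2.34 ± 0.24 (limma adjusted p = 0.00463), and by 1.16 with normexp. Cd3g, a chain of the T cell receptor complex, fell by 2.05 ± 0.18 (limma adjusted p = 0.00361). Icos, a costimulatory receptor, rose by 1.92 ± 0.16 (limma adjusted p = 0.00331), and by 1.15 with normexp. Cd8a, which no control array read well above background, was at least 2.56-fold higher, a bound not reached with normexp (0.65 on the log2 scale). It met the filter on dim probes only through its 3 UVB arrays, so its call is no separate support for the direction. Il17f (-0.87 ± 0.58, and 0.15 with normexp) and Cd4 (0.80 ± 0.25) did not pass.

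The skin also differed in the markers of its cells, and their part in the values above was not tested. The counts below stand beside 5.54% of all targets called higher and 7.02% called lower. In bulk skin, fewer cells of a type and less RNA per cell cannot be told apart. A summed log2 level is the log2 of the summed signals, off the log scale, of the tested markers of a list, so that its brightest probes weigh most. Hair follicle markers rose in 10 of 16 cases, and their summed log2 level ran from 4.67 to 4.84 in controls and from 8.26 to 10.24 after UVB. T cell markers fell in 6 of 7 tested cases (3 to 4 with 1 array left out, the fewest without control replicate 2 or UVB replicate 1 or 2), with a summed log2 level of 5.51 to 5.70 in controls and 3.95 to 4.26 after UVB. Of 10 keratinocyte markers, all tested, 2 fell and 8 did not pass (with 1 array left out none fell), and their summed log2 level was 11.21 to 11.43 in controls and 11.40 to 11.64 after UVB. Of 8 tested myeloid markers 1 rose and 2 fell, and with 1 array left out none rose except 1 without UVB replicate 3 (7.25 to 7.56 and 7.73 to 8.24). Of 6 tested fibroblast markers 3 rose and 1 fell, with none that rose without control replicate 1 or any 1 UVB array. Their summed log2 level was 5.12 to 5.36 in controls and 4.62 to 5.01 after UVB. Yet 5 of the 6 had a positive log2 fold change, with a median of 1.59 over the 6. Thy1 is in both the fibroblast and the T cell list. Cd3g is in both the T cell markers and the T cell genes linked to Batf, and S100a8 in both the myeloid markers and the AP-1 target genes. The counts of such lists are therefore not separate. Melanocyte markers rose in 5 of 6 cases (1.40 to 1.56 and 4.08 to 4.70), and adipocyte markers in 1 of 5 tested, with 2 that fell, where none rose without UVB replicate 1 and 1 fell without control replicate 2 or UVB replicate 1 or 2 (2.40 to 2.88 and 2.90 to 4.90). None of 5 tested skeletal muscle markers passed (-1.25 to 0.95 and -2.19 to -0.47), nor did 3 endothelial ones (3.18 to 3.40 and 3.49 to 3.80).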

How the data were processed

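Back skin RNA of 3 control and 3 UVB mice was measured on 6 Agilent 1-colour arrays, grouped by the sample titles. The deposited intensity of each spot comes, per the file headers, from Feature Extraction 10.7.1.1 by Agilent, run with detrending (spatial, multiplicative) and with surrogates for dim spots. The authors' deposited table of log2 values (column medians of 4.96, method not given in the sources used here) correlated with its own array at r of 0.99989 to 0.99998 over tested probes and served as an alternative. Its centring and scaling are known only from the values, which gave nearly the same results as quantile normalization. It called 1381 targets higher and 2012 lower, against 1383 and 2002 with quantile normalization.

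Outlier spots, 135 to 274 on an array, and control spots were removed. Log2 signals were taken relative to the 75th percentile of each array, which was 363 to 519 in controls and 302 to 352 after UVB, and spots of a probe were averaged. Probes on at least 3 of 6 arrays well above background were tested (54.9% to 63.3% of spots per array were so; none was saturated). Probes were named through a RefSeq table of GRCm38.p6, by accession, symbol or a synonym of 1 gene only, and otherwise kept the files' name. Each target was represented by its brightest tested probe. The groups were compared with limma 3.58.1 under R 4.3.3 (two-sided, Benjamini-Hochberg over 24333 targets), a step tested on simulated data. Where a gene was not well above background in a group, its fold is a bound against the higher of the array's lowest signal well above background and its own.

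Members and lists were chosen with earlier results of these data known. Outside the 9 members, the text names, in each list, the 2 called genes of smallest adjusted p in each direction, the 2 largest changes that did not pass, 12 genes fixed by name (Mmp3, Mmp9, Mmp13, Il6, Ptgs2, Ivl, Ccnd1, Egr1, Dusp1, Mapk8, Mapk9, Mapk14), and the 5 most like Fos. Of the genes this rule names, 1 is not reported here. Probe positions are in mm9 and promoter positions in GRCm38.p6. The exon or untranslated region that a probe lies in was not analysed here. All arrays had 1 scan time, so no block for scanning was possible.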

Additional observations from a re-analysis of the deposited data

How the results depend on the processing

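Under the 15 alternatives, each of the 9 AP-1 genes kept the sign of its log2 fold change. Quantile normalization and the deposited table gave nearly the same values, so they are not separate checks. The count of members that passed was 0 higher and 0 lower, and it stayed so with quantile normalization, array median scaling, the deposited table, no filter on dim probes, a filter on all 6 arrays and the replicate block. It was 1 higher and 1 lower with normexp background correction, 1 higher and 1 lower with a variance trend and robust eBayes, and 1 higher and 0 lower with the mean of the probes of a gene. With 1 array left out, 0 were higher and 0 to 1 were lower. The genes concerned were Fosl1, Fosl2 and Fosb, at limma adjusted p of 0.0252 to 0.0497. Signs turned only among the other named genes, for Dusp10 (0.18) and Il17f (0.15) with normexp and for Mmp13, -0.23 without control replicate 3 and up to 0.98 (without control replicate 1) with another array left out. Over all targets, normexp called 2547 higher against 1349, and no filter called 1062 lower against 1708. With 1 array left out, 472 to 955 were higher and 393 to 1064 lower, the fewest without control replicate 2. Same-numbered mice of both groups did not deviate together (correlations of -0.11, -0.26 and -0.08). No pairing by number was thus seen, though 3 such correlations cannot exclude one. A replicate block left 476 higher and 306 lower over all targets and 0 of 22 immediate early companions lower. The normexp setting added an offset of 50 to every signal before each array was scaled to its 75th percentile. The offset draws dim signals together, and the scaling can shift them between groups where that percentile differs. In the main setting it was 302 to 352 after UVB and 363 to 519 in controls. With normexp the median log2 fold change over all targets was 0.08, against -0.04, and 58.0% were positive, against 46.7%. Its values for dim probes are thus not only a shrunken form of the main ones. What caused its differences was not tested.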
